A study of Zea mays with 2 samples.

Results

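The regions described here are binding peaks of the maize homeodomain protein KN1 (KNOTTED1) whose summit lay more than 2000 bp upstream of the start of the nearest annotated gene. They were chosen by position alone: a peak had to lie on 1 of the 10 chromosomes, be listed with a single gene that has a Zm00001d identifier, and have its summit beyond that limit by the strand of the gene. This gave 1843 peaks of the 21437 listed, or 8.93% of the 20647 peaks on the chromosomes with a single gene. They are called distal upstream peaks below, and they belonged to 1548 genes.

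The study sequenced 1 ChIP library and 1 input library by chromatin immunoprecipitation followed by sequencing (ChIP-seq). Both came from leaf protoplasts (leaf cells without walls) of etiolated seedlings of the inbred line B73, and the labels give both the same protocol, with transfection of the plasmid p1107-KN1. The KN1 made from the plasmid carried the BLRP tag, a peptide that a biotin ligase modifies, which allows recovery through biotin. Neither library has a replicate, so no value below has a replicate error and no test across samples exists. Intervals are at 95%, cover only the counting of peaks in these libraries, and treat neighbouring peaks as independent, which they are not.

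KN1 is a KNOX protein that acts in the shoot meristem, where it keeps cells indeterminate, and it is normally absent from developing leaves. KNOX proteins bind DNA together with BELL-class partners, and genes of gibberellin, cytokinin and auxin biology are among their known targets. In the maize genome, genes are separated by long stretches of repeats, and some regulatory elements lie far upstream of the gene they control, as at the domestication gene tb1. Identifiers were not paired with gene symbols, so a peak is given by its position and by the identifier of its nearest gene, which is not thereby shown to be its target. Coordinates are as listed, on the assembly to which the Zm00001d identifiers belong, AGPv4.

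The strongest distal upstream peaks were among the strongest KN1 peaks on the chromosomes. The other classes outside genes also held such peaks, with highest folds of 92.5 to 97.1. Folds here and below are the fold enrichments given by the authors for the summit of each peak. Of the 10 single-gene peaks with the highest fold, 3 were distal upstream peaks (interval 6.67 to 65.2%). They were 15 of the 100 highest (8.65 to 23.5%) and 122 of the 1000 highest (12.2%, 10.2 to 14.4%). Over all single-gene peaks their share was 8.93%, which only the last of these intervals excludes. The highest distal upstream peak was at chr10:2349027-2350181, with its summit 2638 bp upstream of Zm00001d023299 (plus strand, 2352030 to 2356262). It had a fold of 96.4 and 274 overlapping ChIP reads at the summit. The second was at chr4:27937796-27938636, 2385 bp upstream of Zm00001d049364 (plus strand, 27940728 to 27941339), with a fold of 94.3 and 268 reads. The third, at chr7:133525310-133526417, lay 4272 bp upstream of Zm00001d020808 (minus strand, 133517158 to 133521665) and had a fold of 92.9 and 264 reads.

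The 10 distal upstream peaks with the highest folds had folds of 79.2 to 96.4 and lay 2385 to 5412 bp from their genes. They were on 8 chromosomes, and 9 of them lay in the outer segments of their chromosome, the first or last 2 of 10 equal segments. Of all 1843 members, 308, 176, 304 and 479 lay in segments 1, 2, 9 and 10. All 10 were measured against an input level at the genome-wide floor, as were 92.8% of all members. Their widths ran from 623 to 1968 bp, and 8 of them had another listed summit within 5 kb, against 72.3% of all members. In 5 of the 10 the gene also had a summit within 500 bp upstream of its start, against 506 of all 1843 members.

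Across all 1843 members the fold had a median of 10.9 (interval 10.5 to 11.6), with quartiles of 6.64 and 22.4 and a range of 3.32 to 96.4. Over all single-gene chromosomal peaks the median was 9.47 (9.11 to 9.47). A fold of at least 20 was reached by 521 distal upstream peaks (28.3%, interval 26.2 to 30.4%), against a background of 22.3% of all single-gene peaks. At a fold of at least 40 the share was 9.28% (7.99 to 10.7%), with 6.77% as the background, and at a fold of at least 10 it was 54.6% (52.3 to 56.9%), with a background of 47.2%.

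Distal upstream peaks were close in strength to several other classes outside genes. The share at 20-fold or more was 28.3% beyond 2000 bp upstream, against 28.2% at 501 to 2000 bp upstream (interval 26.6 to 29.9%) and 28.8% beyond 2000 bp downstream of gene ends (26.3 to 31.4%), and these intervals overlap widely. It was 25.4% for summits up to 2000 bp downstream (23.9 to 26.9%), an interval that also overlaps. It was 24.1% for summits within 500 bp upstream (22.8 to 25.3%) and 14.3% for summits inside genes (13.4 to 15.1%), and neither interval reaches that of the distal upstream peaks. The distal upstream share exceeded the share inside genes on 10 of 10 chromosomes and the share within 500 bp upstream on 9 of 10. The exception was chromosome 10, with 22.5% distal upstream and 25.5% within 500 bp. It exceeded the share at 501 to 2000 bp on 6 chromosomes and the distal downstream share on 4. Chromosomes share the same pair of libraries and are not replicates. These contrasts depend on placing peaks by their summit. With peak edges in place of summits, a peak that touches the gene counts as inside it. The share was then 26.4% distal upstream (24.3 to 28.7%), 21.4% inside genes (20.6 to 22.1%) and 18.1% within 500 bp upstream (16.4 to 19.8%).

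**Figure D1:**
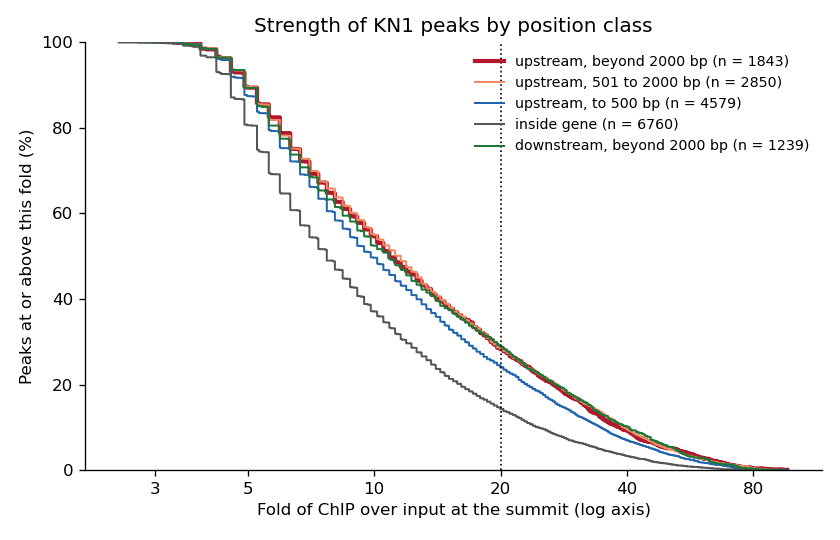
Share of peaks (%) at or above each fold of ChIP over input at the summit (log axis), 1 line per position class; the dotted line marks 20-fold. The lines of the distal upstream peaks, of those 501 to 2000 bp upstream and of the distal downstream peaks run together, at 28.3%, 28.2% and 28.8% at 20-fold, and the line for summits inside genes runs lowest, at 14.3%.

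Read from the other side, the weight of distal upstream peaks among all single-gene peaks grew with fold. With single-gene peaks ranked by fold and divided into 10 equal groups, distal upstream peaks made up 6.83% of the weakest group (141 of 2065, interval 5.78 to 8.00%) and 11.8% of the strongest (244 of 2065, 10.5 to 13.3%). The weak calls were also fewer than over all single-gene peaks, but not particular to this class. A −log10 q below 10 was found for 457 distal upstream peaks (24.8%), compared with 30.6% of all single-gene peaks. The lower quartile of −log10 q was 10.3 both for distal upstream peaks and at 501 to 2000 bp upstream. It was 9.28 for distal downstream peaks and 8.31 over all single-gene peaks. The weakest distal upstream peak rested on 9 overlapping reads at the summit, and the median on 31, with 26 over all single-gene peaks. The median was 32 reads at 501 to 2000 bp upstream and 30 for distal downstream peaks. Where input is at the floor, reads and q rise with fold, so these are not separate results.

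Distal upstream peaks had a median width of 495 bp (477 to 511 bp), with quartiles of 342 and 719 bp, compared with 454 bp (450 to 457 bp) over all single-gene peaks. The median was 494 bp at 501 to 2000 bp upstream (482 to 506 bp), 470 bp distal downstream (453 to 486 bp) and 407 bp inside genes. A width of at least 1000 bp was found in 197 distal upstream peaks (10.7%, interval 9.31 to 12.2%), with 14.1% at 501 to 2000 bp upstream (12.8 to 15.4%) and 6.36% within 500 bp (5.67 to 7.10%). It was found in 11.7% of distal downstream peaks (9.97 to 13.6%) and 10.3% of those up to 2000 bp downstream (9.27 to 11.4%), and both intervals overlap. Width and fold had a Spearman rho of 0.79 over the 1843 peaks, a relation in part built into peak calling, since a taller pileup passes the threshold over a longer stretch. Among peaks of 400 to 600 bp, 22.7% of the distal upstream ones reached 20-fold, against 21.0% at 501 to 2000 bp upstream, 15.6% within 500 bp and 13.6% inside genes. The widest member, at chr3:190353098-190356392, was 3295 bp wide. Its summit lay 2112 bp upstream of Zm00001d043156, whereas its edge overlapped the gene.

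The number of distal upstream summits declined with distance from the gene. There were 467 at 2001 to 2500 bp, 388 at 2501 to 3000 bp, 280 at 3001 to 3500 bp, 249 at 3501 to 4000 bp, 213 at 4001 to 4500 bp and 151 at 4501 to 5000 bp. The median distance was 3119 bp, with quartiles of 2488 and 3996 bp. The table lists chromosomal peaks only where their edge lies within 5 kb of a gene, so a summit beyond 5000 bp is listed only if its peak reaches back towards the gene. There were 95 such members, with a median width of 686 bp, against 484 bp for the 1748 members nearer to the gene. The length of sequence available at each distance was not analysed here, so these counts are not densities.

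Beyond 2000 bp, there were 1843 upstream and 1239 downstream summits, which gives a ratio of 1.49 (interval 1.38 to 1.60). The ratio was above 1 in each bin of 500 bp up to 5000 bp, from 1.30 at 3001 to 3500 bp to 1.78 at 4001 to 4500 bp. The sides differ in what the nearest-gene assignment leaves to each, and this was not tested.

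Fold showed no trend with distance up to 5000 bp. Across the 1748 members in that range, Spearman rho between fold and distance was -0.0017, over peaks of the same library. The share at 20-fold or more was 26.1% at 2001 to 2500 bp (interval 22.2 to 30.4%), 30.7% at 3001 to 3500 bp (25.4 to 36.5%), 20.7% at 4001 to 4500 bp (15.4 to 26.7%) and 25.8% at 4501 to 5000 bp (19.1 to 33.6%). It was 39.5% at 5001 to 5500 bp (28.8 to 51.0%), where only peaks wide enough to reach the 5-kb zone are listed. The farthest member was at chr8:157630268-157631797, with its summit 5949 bp upstream of Zm00001d011654, a width of 1530 bp and a fold of 35.4.

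**Figure D2:**
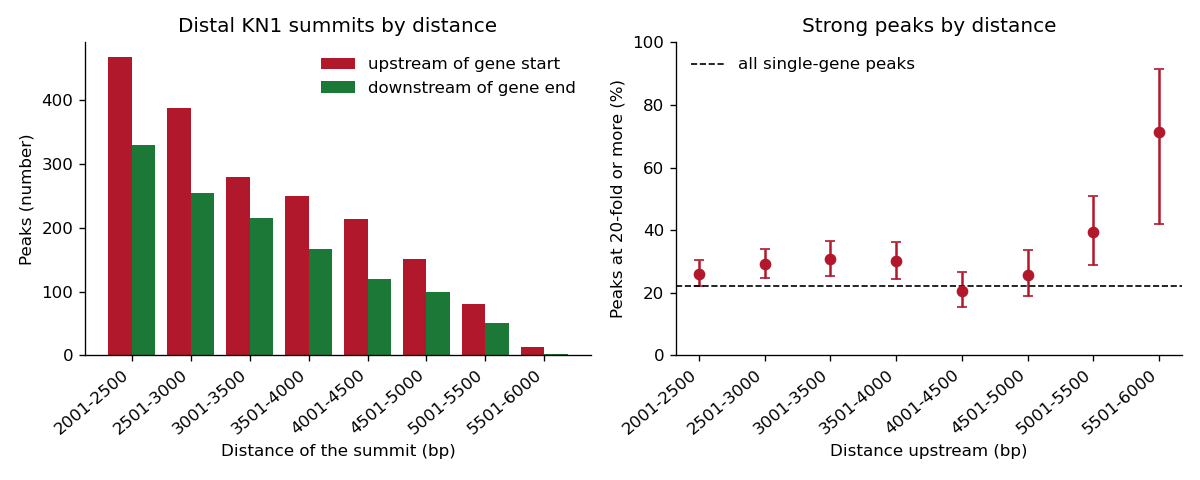
Left, number of peaks with the summit beyond 2000 bp, by distance in bins of 500 bp, upstream of gene starts and downstream of gene ends. Right, share (%) of the upstream peaks at 20-fold or more in each bin, with exact 95% intervals, and the 22.3% of all single-gene peaks as a dashed line. Counts fall with distance on both sides, and the share lies between 20.7% and 30.7% up to 5000 bp and above that in the width-limited bins beyond.

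The members nearest to the 2000-bp limit lay 2001, 2001 and 2002 bp upstream, with folds of 7.01, 48.7 and 8.76. The nearest upstream peaks that were left out lay 2000, 1999 and 1999 bp upstream and had folds of 34.7, 12.3 and 13.0.

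Most genes with a distal upstream summit had 1 such summit, and most also had another listed peak. A single distal upstream summit was found at 1296 of the 1548 genes, and 252 genes had 2 or more, with 547 members between them. Another peak within 500 bp upstream was present at 414 of the 1548 genes (26.7%, interval 24.6 to 29.0%). This lies below the 34.1% of all genes with a single-gene peak that had one (33.3 to 34.9%), a set that includes genes whose only peak is the proximal one. The share was 21.5% of the genes with a summit at 501 to 2000 bp upstream (interval up to 23.1%), 23.6% of those with a summit up to 2000 bp downstream (22.1 to 25.2%, which overlaps that of the distal genes) and 18.4% of those with a distal downstream summit (up to 20.9%). A peak has 1 listed summit, so a summit close to another within the same peak is not counted. The share was 13.9% with peak edges in place of summits, since a peak that touches the gene then counts as inside it. A further 440 distal genes (28.4%) had a summit at 501 to 2000 bp, 389 (25.1%) a summit inside the gene and 96 (6.20%) a distal downstream summit, and a gene can count in several of these groups. No other single-gene peak outside the distal upstream class was listed at 560 genes (36.2%, 33.8 to 38.6%).

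Distal upstream peaks had higher folds at genes that also carried a proximal peak. The 506 members at genes with a summit within 500 bp upstream had a median fold of 13.7 (interval 12.6 to 15.1), and 32.6% reached 20-fold (28.5 to 36.9%). The 632 members at genes with distal upstream summits only had a median fold of 9.47 (8.76 to 10.5), and 23.9% reached 20-fold (20.6 to 27.4%). The remaining 705 members had a median of 10.9 and a share of 29.1% (25.7 to 32.6%).

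Within the 414 genes that had both, the strongest distal summit had the higher fold in 246 (59.4%, interval 54.5 to 64.2%), the strongest proximal summit in 162, and 6 were equal. The median log2 ratio of distal to proximal fold was 0.34 (0.21 to 0.56), with medians of 15.2 at the distal and 11.4 at the proximal summits. The distal fold exceeded the proximal one by a factor of 2 or more in 131 genes (31.6%), and the reverse held in 75 (18.1%). A gene can have several distal summits and the highest was taken, which favours the distal side. In the 337 genes with 1 of each, the distal fold was higher in 190 (56.4%, 50.9 to 61.7%), with a median log2 ratio of 0.27 (0.06 to 0.48). With the distal summit nearest to the gene in place of the strongest, the share was 54.6% (49.7 to 59.5%), an interval that holds equality. The folds of the 2 summits were almost unrelated across the 414 genes, with a Spearman rho of 0.09.

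**Figure D3:**
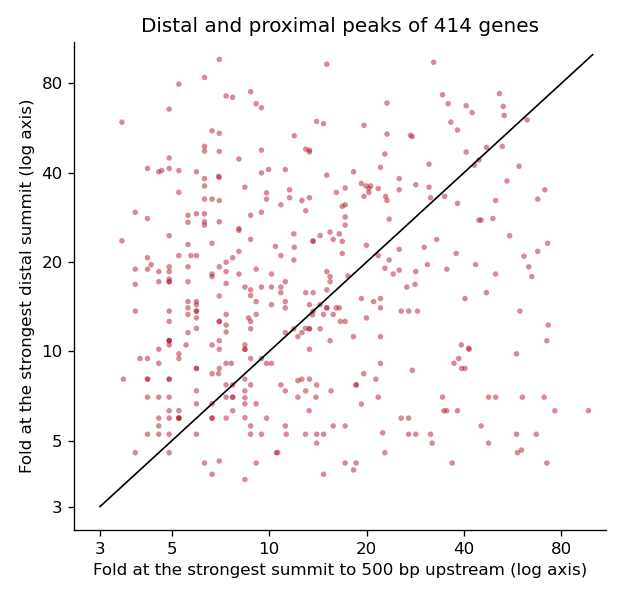
Each point is 1 of the 414 genes with a distal upstream summit and a summit within 500 bp upstream: fold at the strongest distal summit (vertical, log axis) against fold at the strongest proximal summit (horizontal, log axis), with the line of equal folds. Of the points, 246 lie above the line and 162 below, and the points fill the plane with no visible relation.

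The extremes of this comparison lay far from equality in both directions. Zm00001d038698, on the plus strand of chromosome 6, had a fold of 59.2 at its distal summit, 4297 bp upstream, and 3.51 at its proximal one, 354 bp upstream, a ratio of 16.9. Next came Zm00001d026191 with 79.6 and 5.26 (ratio 15.1) and Zm00001d023299, the gene with the strongest distal peak, with 96.4 and 7.01 (ratio 13.75). These proximal summits rested on 9, 14 and 19 overlapping reads. At the other end, Zm00001d003401 on chromosome 2 had a fold of 4.21 at its distal summit, 2032 bp upstream, and 72.2 at its proximal one, 488 bp upstream. Zm00001d026154 on chromosome 10 had 6.31 at its distal and 97.1 at its proximal summit, which was the highest fold of all single-gene peaks.

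Against summits at 501 to 2000 bp of the same gene, distal summits were neither mostly stronger nor mostly weaker. Of 440 genes with both, the distal summit had the higher fold in 219 (49.8%, interval 45.0 to 54.5%), with a median log2 ratio of 0.00 (-0.10 to 0.22). In the 96 genes with distal summits on both sides, the upstream one was the higher in 42 (43.8%, 33.6 to 54.3%), an interval that also holds equality.

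Some upstream regions carried runs of distal summits in which 1 or 2 peaks stood well above the rest. The gene with most was Zm00001d022451 on chromosome 7 (177999485 to 178000798, minus strand), with 5. Going upstream, these lay at 2135, 2571, 3776, 4459 and 4990 bp, with folds of 5.96, 6.31, 28.4, 32.3 and 4.91. The pair at 3776 and 4459 bp was the highest there. Nearer the gene were 3 further upstream summits, at 79, 1088 and 1530 bp, with folds of 12.6, 4.56 and 5.96.

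Zm00001d026191 on chromosome 10 (140619551 to 140620363, plus strand) had 4 members, at 2304, 3297, 4076 and 5412 bp, with folds of 23.1, 13.0, 18.6 and 79.6. The farthest was the highest. Zm00001d048066 on chromosome 9 (149283435 to 149286730, minus strand) had folds of 7.01, 4.32, 56.4 and 9.11 at 2085, 2822, 3762 and 4534 bp. There the third from the gene stood out. Zm00001d034205 on chromosome 1 had a highest fold of 31.6, at 3426 bp, with 5.32 to 9.47 at its other 3 members. Zm00001d017703 on chromosome 5 had its highest, 23.8, at 5239 bp and 3.86 to 7.01 at the other 3, and no listed upstream summit nearer than 3441 bp.

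**Figure D4:**
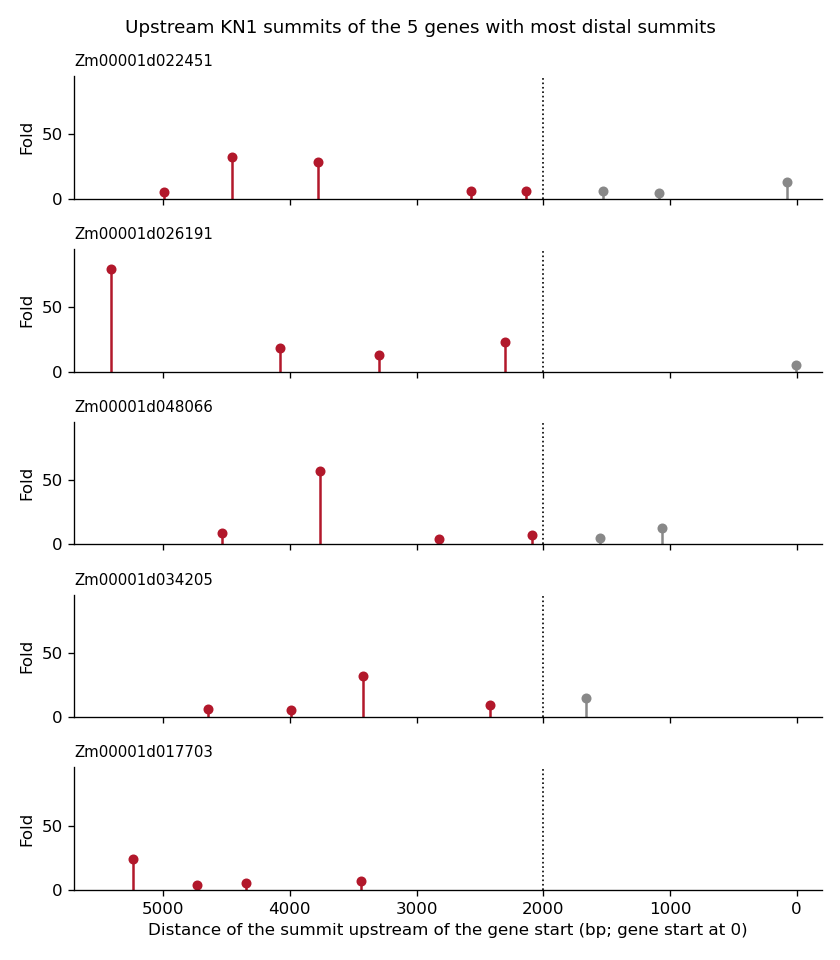
Upstream summits of the 5 genes with most distal upstream summits: fold of ChIP over input (vertical) against distance upstream of the gene start (bp, gene start at the right); red, beyond the 2000-bp limit (dotted), and grey, nearer. In each gene 1 or 2 distal summits exceed the other upstream summits, with top folds of 32.3, 79.6, 56.4, 31.6 and 23.8 from top to bottom.

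In the 215 genes with exactly 2 distal upstream summits, these lay a median of 1081 bp apart (quartiles 777 and 1467 bp, range 414 to 3292 bp). The one farther from the gene had the higher fold in 108 genes (50.2%, interval 43.4 to 57.1%), the nearer one in 104, and 3 were equal. The folds of the pair differed by less than a factor of 2 in 115 genes (53.5%), and their Spearman rho was 0.06 across genes.

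Distal upstream peaks, like those at 501 to 2000 bp, had close neighbours more often than peaks within 500 bp upstream did. The nearest other listed chromosomal summit lay a median of 2231 bp away (quartiles 1094 and 6044 bp), and 72.3% of members had one within 5 kb (interval 70.2 to 74.4%). At 501 to 2000 bp upstream the median was 1796 bp and the share 69.1% (67.4 to 70.8%), which overlaps that of the distal upstream peaks. Within 500 bp upstream of genes the median was 4618 bp and the share 51.5% (50.0 to 52.9%), and over all single-gene peaks 60.8%. A peak outside the 5-kb zone around genes would not be listed and could not count as a neighbour.

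Numbers absent from the series of peak names fell more often on the side away from the gene. Peaks are numbered along the chromosome, and the next number on the far side was absent for 443 members (24.0%, interval 22.1 to 26.1%), against 87 on the gene side (4.72%, 3.80 to 5.79%). At summits within 500 bp upstream the values were 18.0% and 9.74%. Distal downstream peaks also had the higher value on the side away from their gene, 21.6%, against 10.1% on the gene side. Any peak between a distal summit and its gene lies within the 5-kb zone and is listed, whereas one farther out may not be. The sides thus differ in what the listing can hold, so the difference between them cannot be read as a trait of binding. Its cause was not tested. For 351 members (19.0%), another gene of the table lay within 10 kb on the far side, a count limited to genes with a listed peak. Of these genes, 189 (53.8%, 48.5 to 59.2%) were on the opposite strand, so that their start faced the peak, and 162 on the same strand.

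Along the chromosomes, distal upstream peaks took a smaller part of the peaks in the middle than towards the ends. With each chromosome divided into 10 equal segments up to its last listed peak, 142 members (7.70%, interval 6.53 to 9.02%) lay in the fourth to the sixth, compared with 10.9% of all single-gene peaks (10.5 to 11.3%). The share was lower than that of all single-gene peaks on 9 of 10 chromosomes, and on chromosome 10 it was 14.2% against 14.1%. By segment, distal upstream peaks made up 4.14% of single-gene peaks in the fifth (24 of 580, 2.67 to 6.09%) and 10.6% in the tenth (479 of 4515, 9.73 to 11.5%). In the fourth to the sixth segment lay 9.26% of summits at 501 to 2000 bp upstream (8.22 to 10.4%) and 9.52% of distal downstream ones (7.95 to 11.3%), whose intervals overlap that of the distal upstream peaks, and 12.2% of summits within 500 bp upstream (11.3 to 13.2%). The spacing of genes and the share of peaks outside the 5-kb zone were not analysed here, so their part in this was not tested.

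**Figure D5:**
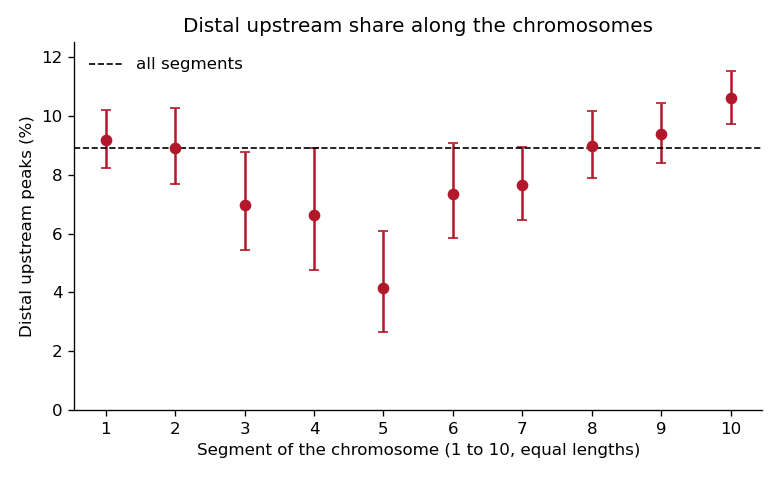
Distal upstream peaks as a share (%) of the single-gene peaks in each of 10 equal segments, pooled over the 10 chromosomes, with exact 95% intervals; the dashed line is the share over all segments, 8.93%. The share is lowest in the fifth segment, at 4.14%, and highest in the tenth, at 10.6%.

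Between chromosomes, the share of single-gene peaks that were distal upstream ran from 7.45% on chromosome 4 (interval 6.27 to 8.76%) to 10.3% on chromosome 7 (8.94 to 11.9%). The share of members at 20-fold or more ran from 22.5% on chromosome 10 (15.4 to 31.0%) to 34.6% on chromosome 5 (28.5 to 41.2%), and these intervals overlap. The median fold of the members was above that of all single-gene peaks on all 10 chromosomes.

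The genes next to distal upstream peaks had a median annotated length of 2246 bp per peak, against 2464 bp for summits within 500 bp upstream and 2874 bp over all single-gene peaks. Gene models shorter than 1000 bp accounted for 23.3% of the members (21.4 to 25.3%), compared with 20.9% within 500 bp upstream and 17.3% over all single-gene peaks (16.8 to 17.8%). Fold was unrelated to gene length (Spearman rho -0.01). Genes lay on the plus strand for 50.8% of members (48.5 to 53.1%).

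The place of the summit within the peak was near that over all single-gene peaks, a set that pools classes which differ. Measured along the gene's strand from the far upstream edge, its median place was 48.7% of the width (47.9 to 49.4%), against 49.2% (48.9 to 49.3%) over all single-gene peaks. It lay nearer the far upstream edge in 54.7% of members (52.4 to 57.0%) and in 52.9% of all single-gene peaks (52.2 to 53.6%), and both pairs of intervals overlap. Within 500 bp upstream the median place was 46.7% and the share 61.9%.

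Input was at the genome-wide floor at 1710 of the 1843 members (92.8%, interval 91.5 to 93.9%), with 92.1% over all single-gene peaks. The 133 members with raised input had a median fold of 10.2, against 10.9 at the floor. The highest input level, 24.1 against a floor of 1.85, was at chr10:1982091-1982654, 3574 bp upstream of Zm00001d023275, with 141 overlapping ChIP reads and a fold of 5.65. Elsewhere the input level at a distal upstream summit did not exceed 3.52.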

How the data were processed

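The authors deposited 1 peak table without a header, with 1 row per peak and gene. Per the submitters' processing notes, fastp 0.21.0, Bowtie2 2.4.2, SAMtools 1.11 and MACS2 were used. The genome size was 700 Mb, and the peak names hold rmdup. The deposited columns used are the ratio (fold) of ChIP over input, −log10 p-value and −log10 q-value, a score (10 times the −log10 q-value), and 2 distances in bp. Peaks compare the ChIP library with the input, with no pooling.

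Positions were converted to 1-based coordinates. Of 21079 chromosomal peaks with a Zm00001d gene, 432 listed with several genes were left out. Pileup and input were solved from fold and p-value by the formulas of MACS2, and 21437 of 21437 peaks were matched to a relative error of 1e-05. The floor of 1.85 and the shortest peak of 229 bp correspond to about 5.66 M ChIP and 11.3 M input reads. The floor depends on the 700 Mb, so the folds of the peaks with input at the floor do too. The effect of duplicate removal on the folds was not tested.

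Shares have Clopper-Pearson intervals and medians order-statistic intervals, for counting error only. The computation was tested on simulated data. Named peaks are those with the highest fold, most members per gene, nearest the limit, farthest, widest, highest input and most extreme distal to proximal ratio, with examples printed. The members, classes and measures were chosen with earlier results of these data known. The RefSeq gene table holds none of the identifiers, so planned symbols and sequences were not used here. Software was matplotlib 3.10.9, scipy 1.17.1, pandas 2.3.3, numpy 2.4.6 and Python 3.11.15.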

Additional observations from a re-analysis of the deposited data

How the results depend on the processing

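The 10 summary values were recomputed under 13 settings, 2 of them added after seeing the data, and 71 of 94 recomputed values stayed within the interval of the reported one (for the number of peaks, within 1.5 times). No paired analysis was possible because there is 1 library of each kind. With the limit at 3000 bp there were 988 distal peaks, 10.7% of upstream summits. With peak edges in place of summits the share beyond 2 kb was 26.7%, the median width 473 bp and the share of distal genes with a proximal summit 13.9%. Among peaks of 400 to 600 bp there were 538 distal peaks, 18.9% of upstream summits, 22.7% of them at 20-fold or more, with a median fold of 12.6, 89.8% with input at the floor, a median summit place of 50.0% and a proximal summit at 10.8% of genes. At −log10 q of at least 10, 37.6% reached 20-fold, the median fold was 15.4, the median width 575 bp and the share with a proximal summit 22.4%. Over all single-gene peaks, 17.1% of those of 400 to 600 bp reached 20-fold. At −log10 q of at least 10 it was 32.1% of them, with a median fold of 13.7. The share of distal genes with a proximal summit was 24.3% among peaks with input at the floor and 35.4% when the first 300 bp of the gene counted as proximal. The share above a threshold was 54.6% at 10-fold and 9.28% at 40-fold, against 47.2% and 6.77% of all single-gene peaks. With chromosomes cut into 3 equal parts, the middle one held 11.3%, and the value over all single-gene peaks was not computed. In the 2 added settings the share beyond 2 kb was 19.0% (summits up to 5000 bp) and 17.2% (nearest distal peak of each gene). A changed fold threshold moves the share above it, and a longer limit lowers the count, by definition. The cause of the other changes was not tested. At 9 overlapping reads for the weakest members, small differences in fold cannot be resolved.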
